A study of Canis lupus familiaris with 13 samples.

Results

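Calcium stored in the sarcoplasmic reticulum drives each heartbeat, and 4 genes of that store were followed in 13 dog heart samples. They are RYR2, the calcium release channel, FKBP1B, a small protein that binds the channel, TRDN (triadin), which anchors the channel to its junctional partners, and ATP2A2, the pump SERCA2 that refills the store. All probe sets with 1 of these symbols in the array annotation were taken, which gave 22 of the 23913 probe sets on the array, for 4 of the 6540 genes with a symbol of their own: 4 for RYR2, 1 for FKBP1B, 7 for TRDN and 10 for ATP2A2. Of the 22, 21 passed a filter on low signal and were tested, and 1 TRDN probe set (1591195_x_at) did not pass.

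The labels give dilated cardiomyopathy for 3 Dobermans (K, L and R) and 4 Boxers (1 to 4), and the other groups were 3 paced mongrels (LV01, LV02 and LV04) and 3 control mongrels (P1, P4 and P9). In this disease the heart chambers widen and the beat weakens, and pacing a healthy dog heart too fast is a common way to bring about heart failure. The labels give no pacing rate or length, no region of the heart, no age and no batch, and they do not state that each sample is a separate animal, so p-values measure the spread between these samples. There were no healthy Dobermans or Boxers, so breed and disease cannot be told apart, and the number of arrays limits the precision.

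In heart muscle, a small entry of calcium through the L-type channel opens RYR2, and the calcium that leaves the store starts contraction. FKBP1B (calstabin 2, FKBP12.6) sits on the channel and is thought to steady its closed state, and triadin ties the channel to junctin and calsequestrin inside the store. SERCA2 then pumps calcium back, which ends the beat, and reduced SERCA2 and altered RYR2 are long-studied features of the failing heart.

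Signals are MAS5 intensities on a linear scale. Changes are on the log2(signal + 16) scale and were tested in limma over 14302 probe sets, with a call at a Benjamini-Hochberg adjusted p under 0.05. The level of one probe set was not compared with that of another, because each binds its target differently. Probe sets ending in _s_at or _x_at hold probes that can bind more than 1 transcript, so 1585442_s_at, 1591195_x_at and the ATP2A2 probe sets with these endings are less certain to report their gene alone.

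The arrays carried heart muscle RNA, with 11 of 13 cardiac muscle markers tested and a summed signal of 261900 to 513800 in the Dobermans, 247500 to 277800 in the Boxers, 211800 to 236300 in the paced mongrels and 238600 to 346200 in the controls. Dobermans L and R stood apart from all other arrays on the GAPDH 3'/5' signal ratio. This ratio, which rises when RNA is broken or incompletely copied, was 2.10 in L and 3.62 in R, against 1.08 in K and 0.967 to 1.09 over the Boxers, paced mongrels and controls. The actin 3'/5' ratio set only R apart, at 0.943, with 0.265 in L and 0.268 in K, 0.255 to 0.34 in the Boxers, 0.169 to 0.218 in the paced mongrels and 0.111 to 0.198 in the controls. The median signal of the array was 234 in L, 219.2 in R and 160 in K, 131.9 to 145.4 in the Boxers, 207.2 to 219 in the paced mongrels and 142.3 to 145.8 in the controls. The summed signal of the 5 tested of 8 smooth muscle markers was 42160 to 66670 in the Dobermans, 31210 to 37980 in the Boxers, 22910 to 28200 in the paced mongrels and 21870 to 32730 in the controls. Much of it was DES (desmin), which heart muscle cells also make in quantity and which averaged 36440 in the Dobermans and 14130 in the controls. Without DES, the other 4 markers summed to 14450 to 23440 in the Dobermans, 15690 to 21080 in the Boxers, 7509 to 12530 in the paced mongrels and 9104 to 19050 in the controls. In this sum, added after seeing the data, the Dobermans overlapped the Boxers and the controls. ACTA2, TAGLN and MYH11 each overlapped in the same way. MCAM did not, at 525.8 to 861.3 in the Dobermans, 228 to 291.2 in the Boxers, 42.1 to 108.6 in the paced mongrels and 274.5 to 310.8 in the controls. The fibroblast marker sum was 19820 to 29520 in the Dobermans, 17640 to 28230 in the Boxers, 13960 to 16910 in the paced mongrels and 12670 to 20440 in the controls. For macrophages and monocytes it was 2326 to 5742, 3069 to 8370, 2386 to 2781 and 2193 to 3670 in the same order. Endothelial, atrial and skeletal muscle sums overlapped between all groups. In tissue, fewer cells of a type and less RNA per cell cannot be told apart. Results that involve Dobermans are therefore given with L and R and, where this matters, with K as the only Doberman, in a fit that also leaves L and R out of the pooled spread. The part of RNA quality, array median and the signal of these cell type markers in the results was not tested beyond that and the fit with the GAPDH ratio.

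RYR2 was lower in the Dobermans than in the controls on 3 of its 4 probe sets, with changes of -1.10 to -2.84 on the log2 scale. Probe set 1587427_at, the RYR2 probe set of highest mean signal, read 4793, 3504 and 3269 in Dobermans K, L and R, 6305, 8148, 7646 and 6202 in Boxers 1 to 4, 3960, 5032 and 6560 in paced LV01, LV02 and LV04, and 8946, 8123 and 7556 in controls P1, P4 and P9. Every Doberman and every paced mongrel lay below every control, and the Boxers overlapped them. The change was -1.10 ± 0.21 (SE) in the Dobermans against the controls (adjusted p = 0.00746 in limma). It was -0.69 ± 0.21 in the paced mongrels (adjusted p = 0.0501), just short of the threshold, and -0.22 ± 0.20 in the Boxers (adjusted p = 0.878). The Dobermans also lay below the Boxers, with a change of -0.88 ± 0.20 (adjusted p = 0.00819), with no overlap. Against the paced mongrels the Doberman change was -0.42 ± 0.21 (adjusted p = 0.164). With K as the only Doberman, the change against the controls was -0.77 (adjusted p = 0.124) and against the Boxers -0.55 (adjusted p = 0.219).

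**Figure D1:**
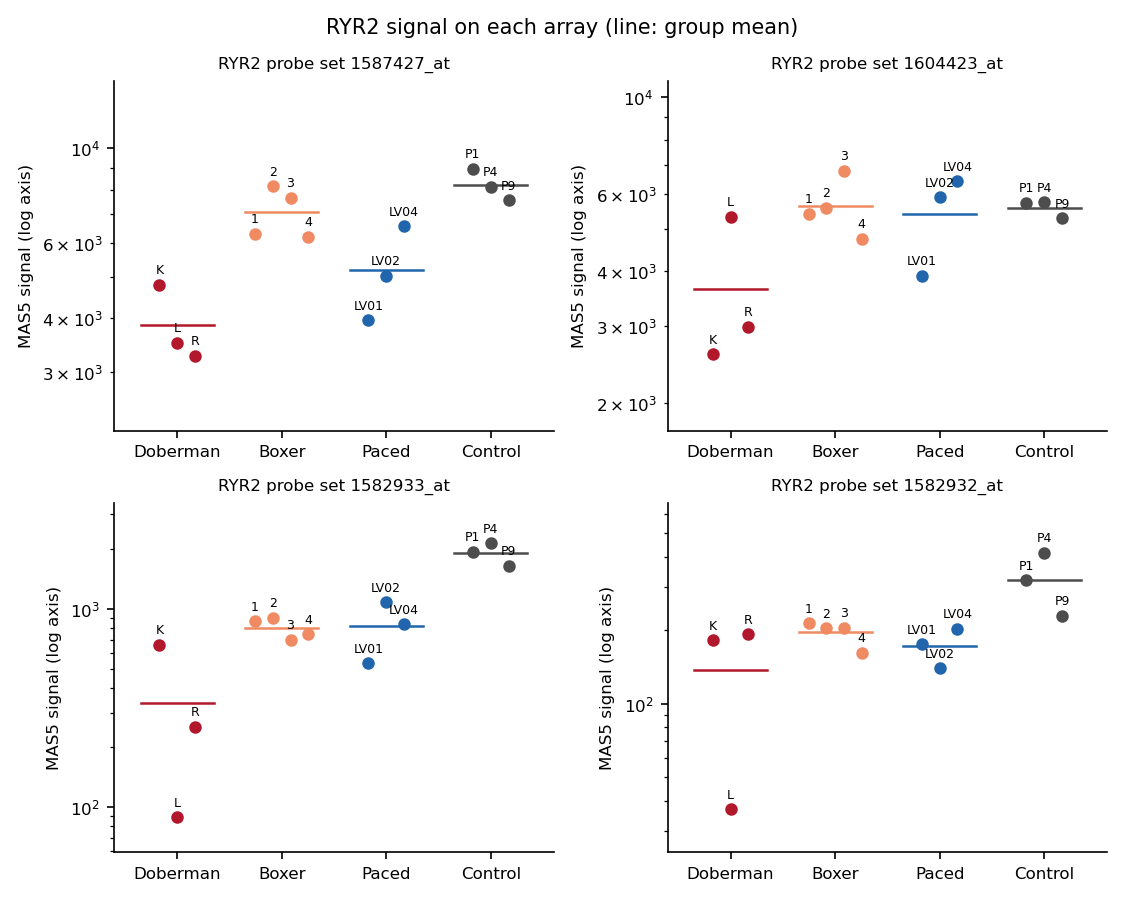
Signal of the 4 RYR2 probe sets on each array (log axis; 1 point per array, horizontal bars at group means), with Dobermans, Boxers, paced mongrels and controls from left to right. On 1582933_at and 1582932_at all 10 diseased or paced hearts lie below the 3 controls, while on 1604423_at Doberman L (5333) lies among the controls.

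The RYR2 probe set 1582933_at showed the widest gap of the 4 between Dobermans and controls. Its signals were 658.1, 88.7 and 255 in the Dobermans K, L and R, 865.7, 902.5, 699.2 and 742.9 in the Boxers, 531.3, 1081 and 833.9 in the paced mongrels, and 1942, 2134 and 1652 in the controls. All 10 diseased or paced hearts lay below all 3 controls, with Doberman L the lowest. The Doberman change was -2.84 ± 0.48 (adjusted p = 0.00507), 7.16-fold lower than the controls. Keeping K alone, it was -1.51 (adjusted p = 0.0286). The Boxer change was -1.23 ± 0.45 (adjusted p = 0.555) and the paced change -1.26 ± 0.48 (adjusted p = 0.099), both short of the threshold although the groups did not overlap. The Dobermans were lower than the Boxers (change -1.61 ± 0.45, adjusted p = 0.017) and than the paced mongrels (change -1.58 ± 0.48, adjusted p = 0.0292). Both of these calls were lost with K as the only Doberman, at -0.27 (adjusted p = 0.635) and -0.25 (adjusted p = 0.625). Without L alone they were lost too (adjusted p = 0.0719 and 0.0919), and the call against the paced mongrels was also lost without R (adjusted p = 0.0635), LV02 (adjusted p = 0.104) or LV04 (adjusted p = 0.0794).

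On RYR2 probe set 1582932_at the controls were again the highest. It read 182.5, 36.8 and 192.5 in the Dobermans K, L and R, 214.1, 203.8, 204.7 and 161.7 in the Boxers, 175.4, 140.1 and 203 in the paced mongrels, and 321.9, 416.1 and 229.4 in the controls. Again the 10 diseased or paced hearts were below every control, though the highest Boxer (214.1) and the lowest control (229.4) were close. The Doberman change was -1.35 ± 0.43 (adjusted p = 0.0379). It was lost with K alone (-0.73, adjusted p = 0.263), without Doberman L (-0.70, adjusted p = 0.107), without P1 (adjusted p = 0.0919), P4 (adjusted p = 0.117) or P9 (adjusted p = 0.0521), and without Boxer 1, 2 or 3 (adjusted p = 0.0507 to 0.051). The Boxer and paced changes were -0.64 (adjusted p = 0.795) and -0.82 (adjusted p = 0.227).

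RYR2 probe set 1604423_at differed from the other 3. It read 2586, 5333 and 2988 in the Dobermans K, L and R, 5411, 5585, 6795 and 4743 in the Boxers, 3903, 5917 and 6428 in the paced mongrels, and 5741, 5747 and 5290 in the controls. Dobermans K and R were the lowest of all 13 arrays, and L was among the controls. The Doberman change was -0.69 ± 0.26 against the controls (adjusted p = 0.0634) and -0.69 ± 0.24 against the Boxers (adjusted p = 0.0416). Taking K alone, it was -1.11 in both comparisons, with adjusted p = 0.0418 against the controls and 0.0433 against the Boxers. With all 3 Dobermans, the call against the Boxers was lost without Doberman K (adjusted p = 0.103) or R (adjusted p = 0.128). It was also lost without any 1 control, without LV02 and without Boxer 1, 2 or 3 (adjusted p = 0.0515 to 0.107). The Boxer change against the controls was -0.00046 ± 0.24 and the paced change -0.08 ± 0.26 (adjusted p = 1 and 0.872). The mean over the 4 RYR2 probe sets was lower in the Dobermans than in the controls (-1.50, adjusted p = 0.00442), the Boxers (-0.97, adjusted p = 0.00882) and the paced mongrels (-0.78, adjusted p = 0.0305). This mean was not fitted with K as the only Doberman.

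FKBP1B was measured by 1 probe set, 1588953_at, and set the breeds apart. It read 2142, 1575 and 1069 in the Dobermans K, L and R, 179.9, 172.9, 128.1 and 125.7 in the Boxers, 995.5, 382.9 and 1812 in the paced mongrels, and 2138, 2989 and 120.5 in the controls. The 4 Boxers lay below all Dobermans and all paced mongrels. Control P9 read lower than any Boxer, while P1 and P4 read far above the Boxers. The Dobermans were 9.35-fold higher than the Boxers, a change of 3.23 ± 0.81 (adjusted p = 0.0118 in limma). In K alone, the change was 3.70 (adjusted p = 0.134). The call was also lost with array weights (2.97, adjusted p = 0.0511) and with the GAPDH ratio in the model (3.86, adjusted p = 0.142).

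**Figure D2:**
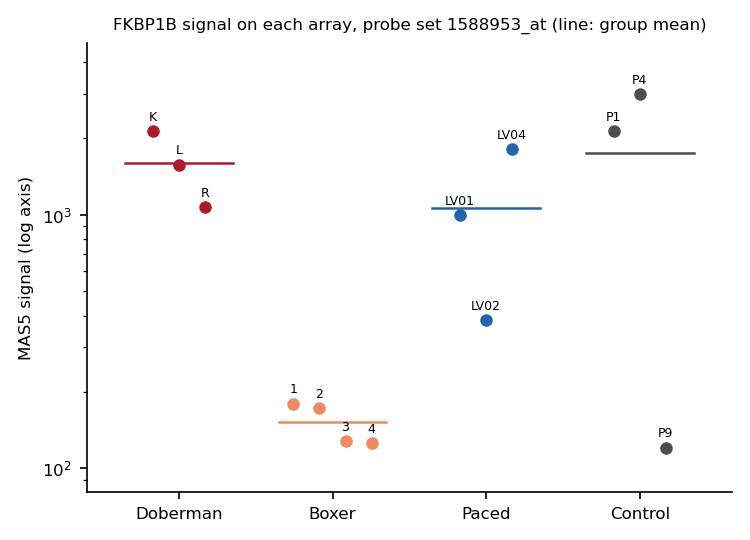
Signal of the FKBP1B probe set on each array (log axis; 1 point per array, horizontal bars at group means). The 4 Boxers lie between 125.7 and 179.9, beside control P9 at 120.5 and below every Doberman and paced mongrel.

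Control P9 decided the comparison of the FKBP1B signal in Boxers with controls. With all 3 controls the change was -2.53 ± 0.81 (adjusted p = 0.457), and without P9 it was -3.94 (adjusted p = 0.0053). The group means with their SD were 151.7 ± 28.7 in the Boxers (n = 4) and 1749 ± 1473 in the controls (n = 3). Against the paced mongrels the Boxer change was -2.45 ± 0.81 (adjusted p = 0.0515), and without P9 its adjusted p was 0.00331. The Doberman change against the controls was 0.69 ± 0.87 (adjusted p = 0.555), with a 95% interval of -1.17 to 2.56, and without P9 it turned to -0.71 (adjusted p = 0.306). The paced change was -0.09 ± 0.87 (adjusted p = 0.961). The GAPDH ratio and median signal of P9 lay within the range over the other controls and the Boxers together.

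TRDN gave different answers by probe set. The TRDN probe set of highest mean signal, 1585442_s_at, read 7716, 10545 and 14530 in the Dobermans K, L and R, 9314, 10011, 10189 and 8928 in the Boxers, 10119, 10202 and 9470 in the paced mongrels, and 10307, 11020 and 9454 in the controls. Doberman K was the lowest and R the highest of all 13 arrays. The change was 0.05 ± 0.20 in the Dobermans (adjusted p = 0.873), -0.09 ± 0.19 in the Boxers (adjusted p = 0.968) and -0.05 ± 0.20 in the paced mongrels (adjusted p = 0.906). The sign of the Doberman change turned with K alone (-0.41, adjusted p = 0.158), with each array centred on its median (-0.39) and in the mean over the 6 tested TRDN probe sets, which was lower than in the controls with a change of -0.69 (adjusted p = 0.0172).

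Of the other tested TRDN probe sets, 3 were lower in the Dobermans than in the controls. Probe set 1605743_at read 774.1, 445.4 and 375.2 in the Dobermans K, L and R, 1254, 1213, 1261 and 1065 in the Boxers, 874.2, 1155 and 1350 in the paced mongrels, and 1242, 1177 and 2078 in the controls. The Dobermans lay below every other array. Their change was -1.49 ± 0.28 against the controls (adjusted p = 0.00727), -1.21 ± 0.26 against the Boxers (adjusted p = 0.00683) and -1.11 ± 0.28 against the paced mongrels (adjusted p = 0.013). The last of these was lost without LV04 (adjusted p = 0.0551). With K as the only Doberman the changes were -0.89 (adjusted p = 0.147), -0.62 (adjusted p = 0.261) and -0.51 (adjusted p = 0.273), none of them called.

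TRDN probe set 1582555_at read 1690, 319.6 and 1289 in the Dobermans K, L and R, 1161, 1381, 1004 and 1321 in the Boxers, 957.9, 1211 and 1051 in the paced mongrels, and 1812, 2619 and 2311 in the controls. All 10 diseased or paced hearts were again below all 3 controls, and Doberman K was close to the lowest control. The Doberman change was -1.30 ± 0.43 (adjusted p = 0.0424). That call was lost in each of the fits that left out 1 array other than K, with adjusted p = 0.05 to 0.114, the highest without P4, and with K alone (-0.39, adjusted p = 0.409). The Boxer change was -0.87 ± 0.41 (adjusted p = 0.674) and the paced change -1.05 ± 0.43 (adjusted p = 0.128). Probe set 1598094_at read 241.9, 71.7 and 125.3 in the Dobermans, 374.8, 328, 272.9 and 389 in the Boxers, 627.5, 618.8 and 725.4 in the paced mongrels, and 205.9, 382.8 and 484.3 in the controls. It was highest in the paced mongrels, each of which lay above every other array.

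For TRDN 1598094_at the Doberman change was -1.26 ± 0.36 against the controls (adjusted p = 0.0259), -1.27 ± 0.34 against the Boxers (adjusted p = 0.0149) and -2.19 ± 0.36 against the paced mongrels (adjusted p = 0.00157). The call against the controls was lost without P4 (adjusted p = 0.0754), P9 (adjusted p = 0.0914), L (adjusted p = 0.103) or R (adjusted p = 0.0645), and that against the Boxers without L (adjusted p = 0.0719). With K as the only Doberman the changes were -0.46 against the controls (adjusted p = 0.542) and -0.46 against the Boxers (adjusted p = 0.487), neither of them called, and -1.38 against the paced mongrels (adjusted p = 0.0269). The paced change against the controls was 0.92 ± 0.36 (adjusted p = 0.108), with no overlap.

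The remaining tested TRDN probe sets were called between the breeds. Probe set 1582560_at read 3825, 3730 and 4974 in the Dobermans K, L and R, 5905, 5667, 6035 and 6015 in the Boxers, 5724, 4874 and 5282 in the paced mongrels, and 5507, 5238 and 5793 in the controls. The Dobermans were below every Boxer and control, with R overlapping the paced mongrels. The change was -0.51 ± 0.15 against the Boxers (adjusted p = 0.019), lost without Doberman L (adjusted p = 0.062), and -0.41 ± 0.16 against the controls (adjusted p = 0.0652). In K alone, it was -0.62 against the Boxers (adjusted p = 0.042).

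TRDN 1582519_at was higher in the Dobermans than in the Boxers. It read 253.4, 1013 and 853 in the Dobermans K, L and R, 323.5, 301.5, 337.4 and 184.2 in the Boxers, 340.2, 445.1 and 343.2 in the paced mongrels, and 481.3, 414.1 and 631.7 in the controls. L and R were the highest of all 13 arrays and K among the Boxers, all of which lay below the controls. The Doberman change against the Boxers was 1.07 ± 0.38 (adjusted p = 0.0426), and with K as the only Doberman it turned to -0.13. The call was lost without P1, P4, L, R, any paced mongrel or any Boxer (adjusted p = 0.0515 to 0.199), and with each array centred on its median (adjusted p = 0.181). The dim TRDN probe set 1591195_x_at, which did not pass the filter, read 13, 217.4 and 55.9 in the Dobermans, 11.9 to 55.7 in the Boxers, 407.9, 421.4 and 529.1 in the paced mongrels and 47 to 66.7 in the controls, so its level was highest in the 3 paced hearts.

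ATP2A2 gave the sharpest disagreement between probe sets. Probe set 1582400_at, of highest mean signal, read 16977, 31608 and 18341 in the Dobermans K, L and R, 18810, 18576, 18109 and 19392 in the Boxers, 14124, 16649 and 17578 in the paced mongrels, and 24114, 25473 and 17099 in the controls. Doberman L was the highest of all 13 arrays, and control P9 lay among the paced mongrels. The change was -0.03 ± 0.23 in the Dobermans (adjusted p = 0.927), -0.23 ± 0.22 in the Boxers (adjusted p = 0.884) and -0.45 ± 0.23 in the paced mongrels (adjusted p = 0.218). In the Dobermans it lay between -0.47 with each array centred on its median (adjusted p = 0.105) and 0.14 without K, and was called under none of the alternatives tried for this probe set.

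ATP2A2 probe set 1592238_s_at read 19167, 2696 and 1696 in the Dobermans K, L and R, 18236, 18447, 18391 and 21721 in the Boxers, 11696, 15768 and 15517 in the paced mongrels, and 25078, 27170 and 18199 in the controls. Dobermans L and R were the lowest of all 13 arrays, and K lay among the Boxers and controls. Probe set 1587642_s_at read 12078, 384.2 and 952.6 in the Dobermans, 12064, 12753, 10407 and 13576 in the Boxers, 6653, 11314 and 9853 in the paced mongrels, and 15693, 19054 and 13776 in the controls. Here too L and R were far below the rest. All 10 diseased or paced hearts were below the controls, but Boxer 4 (13576) and P9 (13776) were nearly level.

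The Doberman changes of these ATP2A2 probe sets against the controls were -2.38 ± 0.60 for 1592238_s_at (adjusted p = 0.0172) and -3.26 ± 0.82 for 1587642_s_at (adjusted p = 0.0166). Against the Boxers they were -2.10 (adjusted p = 0.0153) and -2.86 (adjusted p = 0.0151), and 1587642_s_at was also lower than in the paced mongrels, with a change of -2.44 (adjusted p = 0.0443). Keeping K alone, the changes against the controls were -0.27 (adjusted p = 0.561) and -0.41 (adjusted p = 0.438), and those against the Boxers 0.0015 and -0.01. Without L alone or R alone the calls against controls and Boxers were lost, with adjusted p = 0.0587 to 0.0747. Without P4 those against the controls were lost too (adjusted p = 0.0541 and 0.051), as was 1592238_s_at without P1 (adjusted p = 0.0538). The call of 1587642_s_at against the paced mongrels was lost in each of the fits that left out 1 array other than K (adjusted p = 0.0562 to 0.179).

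The distance of each array from the control mean shows how the ATP2A2 probe sets came apart. In Doberman L it was 0.53 on the log2 scale for 1582400_at and -3.09 for 1592238_s_at. In R it was -0.26 and -3.76, and in K -0.37 and -0.27. In the controls, whose distances are taken from their own mean, the same probe sets moved together, with 0.14 and 0.12 in P1, 0.22 and 0.23 in P4, and -0.36 and -0.35 in P9.

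**Figure D3:**
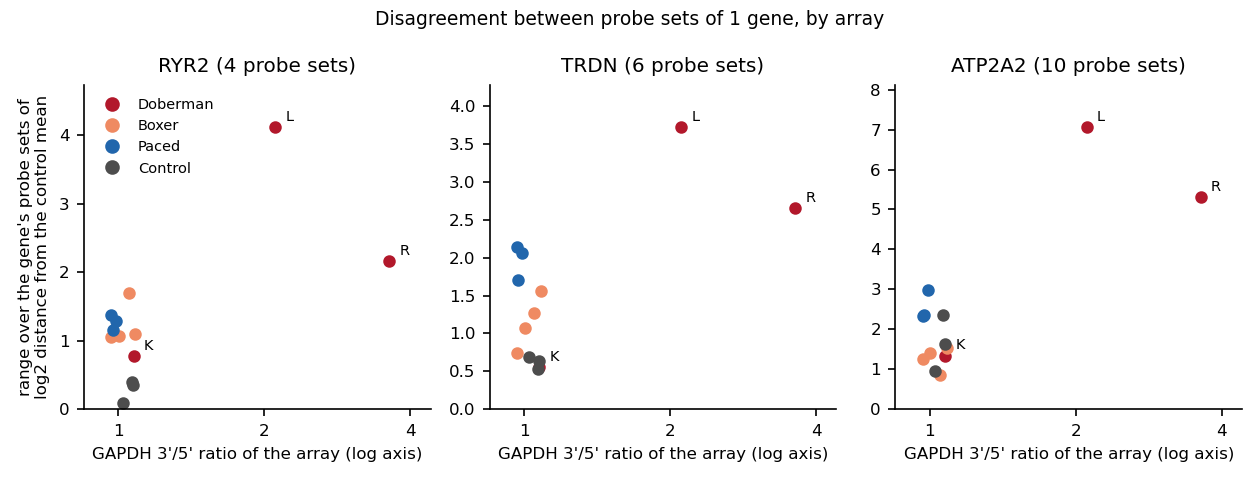
For each array, the range of log2 distances from the control mean over the probe sets of RYR2, TRDN and ATP2A2 (vertical axis), against the GAPDH 3'/5' signal ratio of the array (horizontal axis). Dobermans L and R, with ratios of 2.10 and 3.62, have the widest range for each gene, up to 7.07 for ATP2A2 in L.

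Over all tested probe sets of a gene, the ATP2A2 distances spanned 7.07 in Doberman L and 5.30 in R, against 0.851 to 2.98 on the 10 arrays of the other groups. For TRDN the span was 3.73 in L and 2.65 in R, against 0.532 to 2.14. For RYR2 it was 4.13 in L and 2.16 in R, against 0.0956 to 1.70. In K, with a GAPDH ratio of 1.08, the spans were 1.34, 0.55 and 0.774. Over the Boxers and paced mongrels they were 0.851 to 2.98, 0.7455 to 2.14 and 1.06 to 1.70. K thus lay inside that range for ATP2A2 and below it for TRDN and RYR2. Dobermans L and R were thus the arrays of widest span and of highest GAPDH ratio. L had the wider span of the pair for all 3 genes and the lower ratio. For RYR2 the paced mongrels, with ratios of 0.967 to 0.99, spanned 1.16 to 1.37. The controls, with ratios of 1.02 to 1.07, spanned 0.0956 to 0.402. Distances are taken from the controls' own mean, which keeps the control spans small, so these cannot be set against the spans of the other groups. The part of RNA quality in these spans was not tested.

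Of the other ATP2A2 probe sets, 4 were called in at least 1 comparison. Probe set 1591177_s_at read 2643, 2510 and 4537 in the Dobermans K, L and R, 1925, 2322, 1779 and 2659 in the Boxers, 1323, 1840 and 1533 in the paced mongrels, and 1752, 1927 and 2165 in the controls. The Dobermans were above every paced mongrel and control, by 1.00 ± 0.24 against the paced mongrels (adjusted p = 0.0103) and 0.68 ± 0.24 against the controls (adjusted p = 0.0513). With K as the only Doberman, the first of these was 0.76 (adjusted p = 0.0531). Probe set 1587641_at read 239.6, 161.1 and 299.3 in the Dobermans, 316.4, 403.6, 272.3 and 286.1 in the Boxers, 294.5, 381.4 and 357.5 in the paced mongrels, and 390.3, 406.3 and 365.3 in the controls. The Dobermans lay below every control, with a change of -0.73 ± 0.24 (adjusted p = 0.0404). That call was lost with K alone (-0.66, adjusted p = 0.198) and without any 1 of P1, P4, P9, L, LV02, LV04 or Boxers 1, 3 and 4 (adjusted p = 0.0504 to 0.141).

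The next pair of ATP2A2 probe sets read high in the paced mongrels. Probe set 1591447_at read 40.1, 334.7 and 233.3 in the Dobermans K, L and R, 77.1, 92.9, 106.6 and 76.7 in the Boxers, 326.8, 280.3 and 305.2 in the paced mongrels, and 63.7, 95.2 and 113.4 in the controls. The paced mongrels and Dobermans L and R stood above the rest, and K was the lowest. The Boxers were lower than the paced mongrels with a change of -1.63 ± 0.47 (adjusted p = 0.031), and the paced change against the controls was 1.61 ± 0.51 (adjusted p = 0.0533). The first was lost without any 1 Boxer or paced mongrel (adjusted p = 0.0534 to 0.0932) and under quantile normalization (-1.13, adjusted p = 0.0846) or median centring (-1.05, adjusted p = 0.0557).

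ATP2A2 probe set 1597135_at read 94.4, 42.9 and 41.6 in the Dobermans K, L and R, 171, 152.9, 79.8 and 148.3 in the Boxers, 211.9, 342 and 260.5 in the paced mongrels, and 76.6, 233.8 and 31.3 in the controls. The Dobermans were below the paced mongrels without overlap, with a change of -1.97 ± 0.51 (adjusted p = 0.0143), lost without LV02 (adjusted p = 0.0555) and with K alone (-1.36, adjusted p = 0.202). Several of these signals lie under the filter level of 108, where the added 16 sets much of the size of a change. The 3 remaining ATP2A2 probe sets (1591384_s_at, 1592239_x_at and 1591176_at) had Doberman changes of -0.55, -0.58 and -0.48 (adjusted p = 0.115 to 0.324) and were called in none of the 6 comparisons. The mean over all 10 ATP2A2 probe sets was lower in the Dobermans than in the controls with a change of -0.72 (adjusted p = 0.0231), unlike the brightest probe set.

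**Figure D4:**
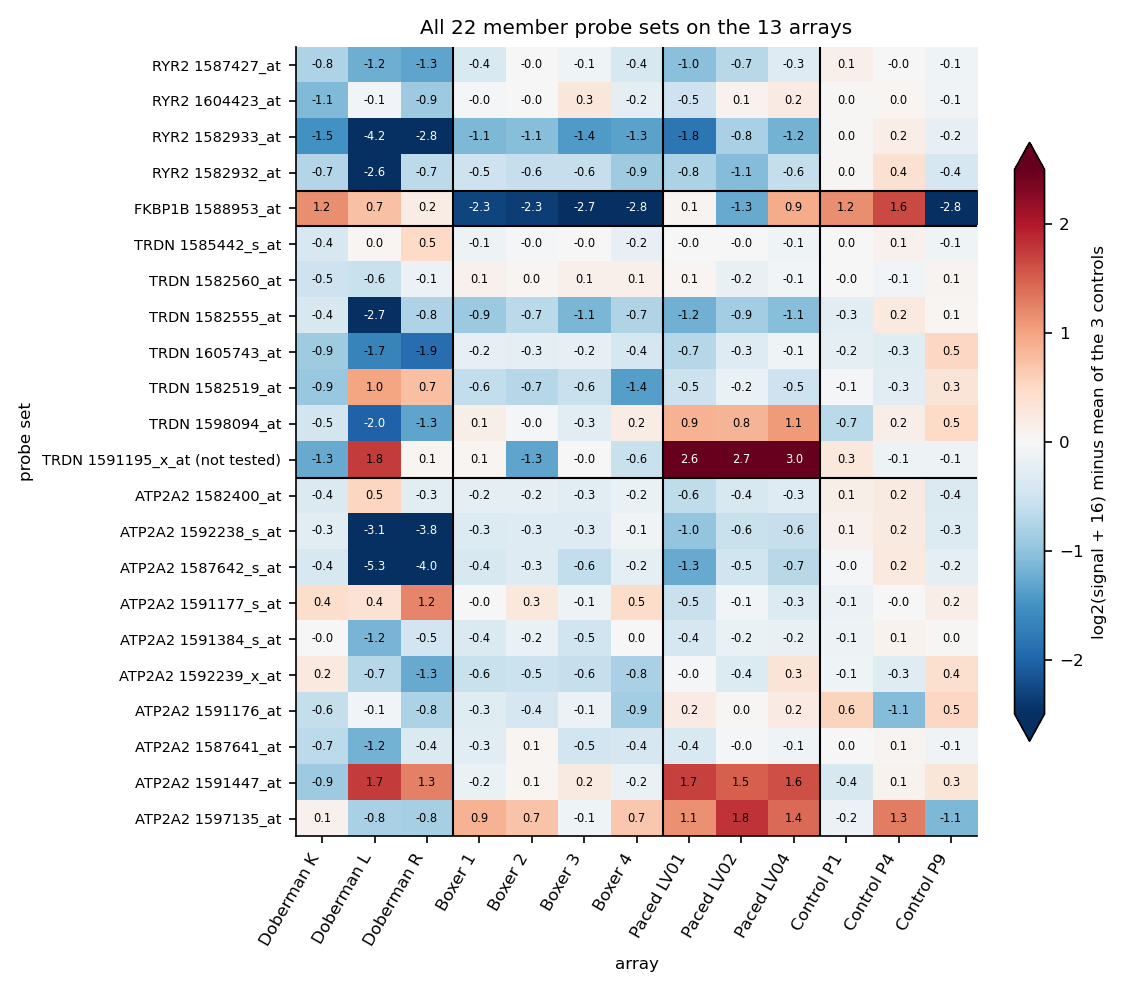
Log2 distance of each array (columns) from the control mean for each of the 22 member probe sets (lines, grouped by gene). Blue is below and red above the controls, with colours held at the ends of the scale. The darkest blue fields are those of Dobermans L and R in RYR2, TRDN and ATP2A2, and of the 4 Boxers and control P9 in FKBP1B, and 1591195_x_at is dark red in the paced mongrels.

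Counted over the 21 tested member probe sets, 9 were lower and 0 higher in the Dobermans than in the controls, or 42.9%. The 21 come from only 4 genes, with 10 from ATP2A2, so they are not independent of each other. Over all 14302 tested probe sets 25.5% were called in this comparison, 11.2% lower and 14.3% higher. The members' median change was -0.58, against 0.19 over all tested probe sets, and by gene it was -1.22 for RYR2, -0.84 for TRDN and -0.53 for ATP2A2. The groups did not overlap on 9 of the 21, or 42.9%, against 33.5% over all. The 9 kept their direction under quantile normalization or median centring, which moved the median of all probe sets to 0.02 and -0.25. These fits gave 8 and 12 lower members, with 1 higher under quantile normalization, against 19% and 25.3% of all probe sets called. In K alone, 2 members were lower, both of RYR2 (1582933_at and 1604423_at), against 2.63% called over all probe sets. The count was 5 without P1, 4 without P4, 5 without P9, 4 without L and 14 without K. In the same order 1414, 1577, 1836, 1192 and 7349 of all 14302 probe sets were called. The count of members was 0 of 21 both when Dobermans and controls were fitted alone and when the GAPDH ratio entered the model. Those fits called 20 and 95 of all 14302 probe sets.

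In the Boxers none of the 21 members was called against the controls in limma, and 3 had an unadjusted p under 0.05 (RYR2 1582933_at, FKBP1B and TRDN 1582555_at, all lower). Over all probe sets 0.042% were called, 0.014% higher and 0.028% lower. The members' median change was -0.27, against -0.03 over all, and the groups did not overlap on 6 of 21 members, against 15.7% of all probe sets. When Dobermans L and R were left out of the fit, which lowers the pooled spread, RYR2 1582933_at (-1.23, adjusted p = 0.0368) and TRDN 1582555_at (-0.87, adjusted p = 0.0427) were called lower in the Boxers, against 0.825% of all probe sets. Without P9 FKBP1B alone was called.

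In the paced mongrels none of the 21 members was called against the controls in limma either, and 6 had an unadjusted p under 0.05. Over all probe sets 12.2% were called, 8.47% higher and 3.74% lower. The members' median change was -0.26, against 0.06 over all, and the groups did not overlap on 9 of 21 members, against 44% of all probe sets. The count depended on the Doberman arrays, which enter this comparison only through the pooled spread. Without L and R 10 members were called, 7 lower and 3 higher, against 30.8% of all probe sets. The count was 6 without K, 5 without L, 2 without R, and 1 without P4 or LV04. In the same order 3315, 2510, 2119, 822 and 816 of all 14302 probe sets were called.

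The paced members called lower without Dobermans L and R were RYR2 1582933_at (-1.26, adjusted p = 0.0019), 1582932_at (-0.82, adjusted p = 0.0212) and 1587427_at (-0.69, adjusted p = 0.0124), TRDN 1582555_at (-1.05, adjusted p = 0.00125), and ATP2A2 1587642_s_at (-0.82, adjusted p = 0.0074), 1592238_s_at (-0.70, adjusted p = 0.00764) and 1582400_at (-0.45, adjusted p = 0.0344). Those called higher were ATP2A2 1591447_at (1.61, adjusted p = 0.00103), ATP2A2 1597135_at (1.46, adjusted p = 0.0417) and TRDN 1598094_at (0.92, adjusted p = 0.0197). The array median was also higher in the paced mongrels (207.2 to 219) than in the controls (142.3 to 145.8), and its part in these changes was not tested. Centring each array on its median gave 7 lower and 0 higher, against 27.4% of all probe sets called.

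**Figure D5:**
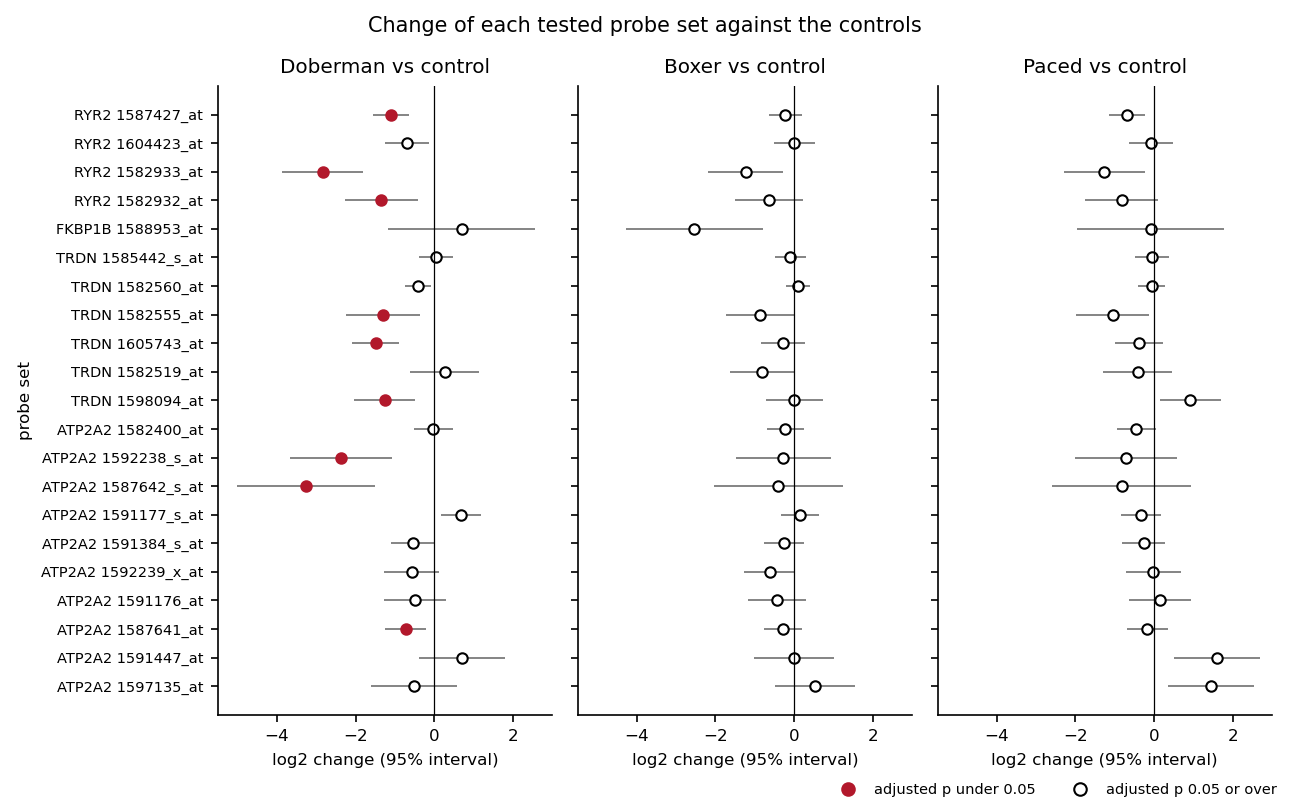
Log2 change with its 95% interval for each of the 21 tested member probe sets in Dobermans, Boxers and paced mongrels against the controls, which all 3 comparisons share. Filled points are called at an adjusted p under 0.05: 9 in the Dobermans, 0 in the Boxers and 0 in the paced mongrels.

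On 4 of 21 tested members, or 19%, all 10 diseased or paced hearts lay below all 3 controls, against 2.01% of all tested probe sets. These were RYR2 1582933_at and 1582932_at, TRDN 1582555_at and ATP2A2 1587642_s_at. On no member did all 10 lie above the controls, against 0.86% of all probe sets. The 3 control arrays are shared by all of these orders, so the comparisons are not independent of each other. Nor are probe sets of the same gene, as with the RYR2 pair.

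Between the breeds, 8 members were lower and 2 higher in the Dobermans than in the Boxers, or 47.6%, against 35.4% of all probe sets (13.6% lower and 21.8% higher). The lower ones were RYR2 1587427_at, 1604423_at and 1582933_at, TRDN 1582560_at, 1605743_at and 1598094_at, and ATP2A2 1592238_s_at and 1587642_s_at. The higher ones were FKBP1B and TRDN 1582519_at. The count of 10 fell to 4 without Doberman L, 6 without R and 2 with K alone (RYR2 1604423_at and TRDN 1582560_at), against 2.13% of all probe sets. Leaving out L called 2213 of all 14302 probe sets and leaving out R 2754. The count of members was 4 when only the breeds were fitted, against 14.8% of all probe sets. It was 0 with the GAPDH ratio in the model, against 56 of all 14302. Quantile normalization ended the calls of RYR2 1604423_at (adjusted p = 0.176), TRDN 1582560_at (adjusted p = 0.088) and TRDN 1582519_at (adjusted p = 0.0793). The groups did not overlap on 6 of 21 members, against 34% of all.

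Against the paced mongrels, 5 members were lower and 1 higher in the Dobermans, or 28.6%, against 24.6% of all probe sets (11.5% lower and 13% higher). The count was 11 without K, 3 without LV02 and 3 without LV04, against 6183, 2138 and 2149 of all 14302. It was 2 when only these groups were fitted (3.66% of all) and 1 with the GAPDH ratio in the model (1028 of all 14302). Median centring ended the calls of RYR2 1582933_at (adjusted p = 0.0658) and ATP2A2 1587642_s_at (adjusted p = 0.0777). The groups did not overlap on 5 of 21 members, against 32.1% of all. Keeping K alone, 4 were lower, against 15.8% of all. The Boxers had 1 member lower than the paced mongrels, ATP2A2 1591447_at, or 4.76%, against 17.7% of all probe sets (4.85% higher and 12.9% lower). Without LV02 the member called was FKBP1B instead (-3.04, adjusted p = 0.0468). The count was 0 without LV01, LV04 or any 1 Boxer, where 1287 to 1862 of all 14302 probe sets were called. It was 2 without P4, P9 or L, 3 without K and 7 without L and R (3 higher and 4 lower, against 35.8% of all). The groups did not overlap on 9 of 21 members, against 43.4% of all.

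The members work among other genes of calcium handling, of which 87 were listed and 38 had a tested probe set, each gene by its probe set of highest mean signal. In the Dobermans 2 of 38 were higher and 7 lower than in the controls, against 25.9% of all 5242 genes called in either direction, with a median change of -0.22 against 0.04. These 9 were 23.7% of the 38. The count was 5 without P1, 4 without P4, P9 or L and 6 without R, against 8.99% to 13.7% of all genes. Without K it was 23, or 60.5%, against 49.1% of all genes. It was 0 with K alone, with only Dobermans and controls fitted and with the GAPDH ratio in the model, against 3.26%, 0.153% and 0.763% of all genes. Median centring gave 1 higher and 14 lower, and array weights 3 higher and 12 lower. Each was 39.5% of the 38, against 29.7% and 27.7% of all genes. The fits of these genes that left out 1 array or used the GAPDH ratio were added after seeing the data.

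Among partners of the release unit 3 of 8 were lower and none higher: HRC, the histidine-rich calcium-binding protein of the store, S100A1, a calcium sensor that binds RYR2 and SERCA2, and TMEM38B, a cation channel of the reticulum. HRC averaged 877.7 in the Dobermans and 2276 in the controls (-1.43 ± 0.26, adjusted p = 0.00621). S100A1 averaged 3010 in the Dobermans and 6363 in the controls (-1.08 ± 0.23, adjusted p = 0.0103), and TMEM38B changed by -1.12 ± 0.35 (adjusted p = 0.0345). The calls of HRC and S100A1 were kept in each of the 13 fits that left out 1 array (adjusted p at most 0.0269 and 0.0418), and that of TMEM38B was lost without P1, P4, P9, L or R (highest adjusted p = 0.121). With K as the only Doberman the changes were -0.92 for HRC, -0.76 for S100A1 and -0.16 for TMEM38B (adjusted p = 0.0732, 0.147 and 0.818).

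The other calcium genes lower in the Dobermans were PPP1CB, a catalytic subunit of protein phosphatase 1 (-3.00 ± 0.91, adjusted p = 0.0319), RCN1, a calcium-binding protein of the endoplasmic reticulum lumen (-2.02 ± 0.57, adjusted p = 0.0246), ITPR2, an inositol trisphosphate receptor (-1.35 ± 0.44, adjusted p = 0.04), and VDAC2, a channel of the outer mitochondrial membrane (-0.89 ± 0.21, adjusted p = 0.0147). ATP2B1, a calcium pump of the cell surface, was higher, with a mean of 2473 in the Dobermans and 896 in the controls (1.36 ± 0.27, adjusted p = 0.00773). CACNB3, a beta subunit of voltage-gated calcium channels, was also higher (0.95 ± 0.29, adjusted p = 0.0324). The calls of VDAC2 and ATP2B1 were kept when any 1 array was left out (adjusted p at most 0.0491 and 0.032). Those of PPP1CB and RCN1 were lost without P4, P9, L or R, that of PPP1CB also without P1, that of CACNB3 without P1, P4, P9 or L, and that of ITPR2 in 9 of the 13 fits (adjusted p up to 0.145 among these 4 genes). In K alone, PPP1CB turned to 0.05, RCN1 was at -0.17, ITPR2 at -0.75, VDAC2 at -0.37, ATP2B1 at 0.57 and CACNB3 at 0.63, with adjusted p = 0.14 to 0.939. Quantile normalization and median centring each ended the call of CACNB3 (adjusted p = 0.147 and 0.157).

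In the Boxers none of the 38 genes was called, with a median change of -0.09 against -0.02 over all genes, of which 0.0572% were called. In the paced mongrels 3 were higher and 1 lower, against 9.16% of all genes called. CACNA1C, the pore of the L-type calcium channel, changed by 1.13 ± 0.23 (adjusted p = 0.00848), CACNB3 by 1.14 ± 0.29 (adjusted p = 0.0236) and CACNB2, another beta subunit, by -0.65 ± 0.18 (adjusted p = 0.0357). ATP2B2, a surface calcium pump, changed by 2.57 ± 0.72 (adjusted p = 0.0337), from a control mean of 92.93 that lies under the filter level. CACNA1C was called in each of the 13 fits that left out 1 array (adjusted p at most 0.0417). ATP2B2, CACNB2 and CACNB3 were each lost without P1, P9 or any 1 paced mongrel, with adjusted p up to 0.127, and CACNB3 also with quantile normalization or median centring. The count of 4 was 1 without P1, P9, LV02 or LV04 and 2 without P4 or LV01, against 4.16% to 5.88% of all genes. It was 9 without K, 9 with only the paced mongrels and controls fitted and 11 with array weights. With the GAPDH ratio in the model it was 8, and with median centring 11 (2 higher and 9 lower, or 28.9%). In the same order 19.8%, 21.7%, 26.6%, 17.2% and 31.7% of all genes were called. Without Dobermans L and R, 6 were higher and 8 lower in the paced mongrels, or 36.8%, against 28.5% of all genes, and CACNB2 was lower in the Boxers (-0.69), against 0.782% of all genes.

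SLC8A1, the sodium-calcium exchanger, was not called, with -1.61 ± 0.65 in the Dobermans (adjusted p = 0.078), -0.63 in the Boxers (adjusted p = 0.885) and -0.92 in the paced mongrels (adjusted p = 0.376). ASPH, the gene that encodes junctin, was not called either, with 0.75 ± 0.28 in the Dobermans (adjusted p = 0.0568), 0.06 in the Boxers (adjusted p = 0.986) and 0.51 in the paced mongrels (adjusted p = 0.238). CASQ2, JPH2, CAMK2D and FKBP1A had no tested probe set under their own symbol and were not analysed here.

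For each member gene, the genes of most similar pattern over the 13 arrays were sought among the other 5241 by Pearson's r of log2 values. Each gene was taken by its tested probe set of highest mean signal. For the members these were RYR2 1587427_at, FKBP1B 1588953_at, TRDN 1585442_s_at and ATP2A2 1582400_at. Other probe sets of RYR2, TRDN and ATP2A2 had other patterns, so the likeness holds for the probe set used and not for the gene as a whole. All points share the 4 groups and the scaling of the arrays, so r of the deviations from the group means is given second. RYR2 was most like ZADH2 (0.952 and 0.89), CYC1 (0.949 and 0.752) and TRAPPC8 (0.944 and 0.76). FKBP1B was most like RFXANK (0.866 and 0.828), TRAPPC1 (0.841 and 0.667) and RPL26 (0.839 and 0.888). TRDN was most like LOC611215 (0.933 and 0.955), RPL37A (0.89 and 0.904) and NDUFS6 (0.888 and 0.93). ATP2A2 was most like YBX1 (0.957 and 0.969), CMYA5 (0.913 and 0.897) and CHCHD10 (0.907 and 0.921).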

How the data were processed

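RNA of 13 dog heart samples was hybridised to an Affymetrix canine array, 1 array a sample. The deposited values are signal intensities made by the authors with MAS5, per the submitters' processing notes; the MAS5 version is not given in the sources used here. On every array the 2% trimmed mean of the deposited intensities was near 500.1, so each array had been scaled to 1 level. Probe sets were named from the platform annotation: 10549 had 1 symbol, 138 several and 13149 none. From these values log2(signal + 16) was computed, 77 control probe sets were set aside, and those under the 40th percentile of mean log2 value (6.95, signal 108) were not tested. limma 3.58.1 (in R 4.3.3) estimated a mean for every group from the 13 arrays together (9 residual degrees of freedom, intensity trend), with Benjamini-Hochberg adjustment over the 14302 tested probe sets of each of 6 comparisons. The pipeline was tested on simulated data. Alternatives were leaving out each array, or Dobermans L and R together, quantile normalization, median centring, pseudocounts 1 and 64, no filter or the 70th percentile, only the groups compared, array weights, the GAPDH ratio as a covariate and gene means. Where 1 Doberman remained, it was assumed to vary like the other groups. Of each gene, sample values are given for the brightest tested probe set and every one called in any comparison. The members and gene lists were chosen with earlier results of these data known. One listed gene is not reported here. Figures were drawn with matplotlib 3.10.9 in Python 3.11.15.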

Additional observations from a re-analysis of the deposited data

Results flagged for a closer look

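Of the 22 member probe sets, 2 had a Boxer far from the other 3, where chance gives about 1 in 20. Boxer 4 was high on ATP2A2 1592238_s_at, with a gap of 0.934 of the group's range, and low on ATP2A2 1592239_x_at, with 0.858, both above Dixon's 95% critical value for 4 samples.

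The tested difference between the Dobermans and the Boxers passed the threshold on 10 members: -0.88, -0.69 and -1.61 on the log2 scale for RYR2 1587427_at, 1604423_at and 1582933_at, 3.23 for FKBP1B 1588953_at, -0.51, -1.21, 1.07 and -1.27 for TRDN 1582560_at, 1605743_at, 1582519_at and 1598094_at, and -2.10 and -2.86 for ATP2A2 1592238_s_at and 1587642_s_at. Between the Dobermans and the paced mongrels it passed on 6: -1.58 for RYR2 1582933_at, -1.11 and -2.19 for TRDN 1605743_at and 1598094_at, and -2.44, 1.00 and -1.97 for ATP2A2 1587642_s_at, 1591177_s_at and 1597135_at. Between the Boxers and the paced mongrels it passed on 1, ATP2A2 1591447_at, at -1.63.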

How the results depend on the processing

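None of the 26 called results kept its call under every alternative. Over their 594 alternative fits, 420 kept direction and call, 171 kept the direction only and 3 reversed. Pseudocounts of 1 and 64 kept all 26, leaving out Doberman K 25, median centring 22, quantile normalization 21, a fit of only the groups compared 7, leaving out Dobermans L and R 5 and the GAPDH ratio as a covariate 1. The high GAPDH ratios are those of Dobermans L and R, and only Doberman K has a ratio like the other groups (1.08). With this covariate, RNA quality and breed are therefore told apart through K alone. No paired analysis was possible because the labels give no pairing of samples. Where no cause is named, it was not tested.

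Of the 21 members, 9 were called in the Dobermans against the controls: 2 without L and R, 0 with only the groups compared, 0 with the GAPDH ratio, and 4 to 14 when leaving out 1 array. In the Boxers against the controls 0 were called, and 0 to 1 when leaving out 1 array (5 to 13 of all 14302 probe sets). Fitting only the groups compared called 1 (0.175% of all) and array weights 2 (1.78%). The count without L and R is given above with its share. In the paced mongrels against the controls 0 were called, and 0 to 6 when leaving out 1 array (811 to 3315 of all 14302 probe sets). Median centring called 7 (27.4% of all), no filter 3 (18.4%), only the groups compared 8 (25%) and array weights 9 (29.5%). A pseudocount of 64 called 2 (1905 of all 14302) and the GAPDH ratio 4 (2935). The count without L and R is given above with its share. Between Dobermans and Boxers 10 were called: 2 without L and R, 4 with only the groups compared, 0 with the GAPDH ratio, and 4 to 14 when leaving out 1 array. When 1 array was left out, 1192 to 7349 of all 14302 probe sets were called between Dobermans and controls, and 2213 to 8110 between Dobermans and Boxers. Other shares for these comparisons are given above. Between Dobermans and paced mongrels 6 were called, and 3 to 11 when leaving out 1 array (2138 to 6183 of all 14302). A filter at the 70th percentile called 3 (1747 of all 7151 tested), only the groups compared 2 (3.66%) and the GAPDH ratio 1 (1028 of all 14302). Between Boxers and paced mongrels 1 was called, and 0 to 3 when leaving out 1 array (1287 to 4152 of all 14302 probe sets). Quantile normalization called 0 (13.5% of all), median centring 6 (37.8%) and no filter 3 (24%). Fitting only the groups compared called 7 (36.3%) and array weights 6 (36.9%). A pseudocount of 64 called 2 (2658 of all 14302), the GAPDH ratio 3 (3784) and a filter at the 70th percentile 0 (407 of all 7151 tested). The count without L and R is given above with its share.

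Reversals were mostly those of uncalled probe sets. TRDN 1585442_s_at in the Dobermans against the controls turned to -0.41 without L and R, -0.39 with median centring, -0.43 with the GAPDH ratio and -0.69 in the gene mean. Against the Boxers it turned to -0.31, -0.37, -0.35 and -0.37 in the same order. Against the paced mongrels it turned to -0.36 without L and R, -0.0532 with quantile normalization, -0.44 with the GAPDH ratio and -0.52 in the gene mean. In the paced mongrels against the controls it turned to 0.20 with quantile normalization and 0.0107 with the GAPDH ratio, and in the Boxers against the paced mongrels to 0.53 with median centring. ATP2A2 1582400_at in the Dobermans against the Boxers turned to -0.14 without L and R, -0.16 with quantile normalization, -0.31 with median centring and -0.53 in the gene mean. Against the paced mongrels it turned to -0.12 with quantile normalization and -0.76 in the gene mean. Its gene mean was 0.0473 in the paced mongrels against the controls and -0.23 in the Boxers against the paced mongrels. Without L and R, 3 called results reversed: TRDN 1582519_at (-0.13) and ATP2A2 1592238_s_at (0.0015) between Dobermans and Boxers, and ATP2A2 1587642_s_at (0.42) between Dobermans and paced mongrels.

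When leaving out 1 array, FKBP1B ranged against the controls between -0.71 and 1.52 for the Dobermans, and between -1.49 and 0.74 for the paced mongrels. TRDN 1585442_s_at ranged from -0.18 to 0.27 in the Dobermans and -0.10 to 0.00776 in the paced mongrels against the controls, from -0.0892 to 0.37 between Dobermans and Boxers and from -0.14 to 0.32 between Dobermans and paced mongrels. ATP2A2 1582400_at ranged from -0.31 to 0.14 in the Dobermans against the controls and from -0.0849 to 0.36 between Dobermans and Boxers.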

Other observations

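In the fit without a filter on signal, TRDN 1591195_x_at, which the filter had left out, was higher in the paced mongrels than in the controls by 2.75 ± 0.59 (adjusted p = 0.00641), lower in the Dobermans than in the paced mongrels by -2.57 (adjusted p = 0.0071) and lower in the Boxers than in the paced mongrels by -3.21 (adjusted p = 0.00143). Over all probe sets, that fit called 18.4%, 25.1% and 24% in the same order of comparisons. The mean signal of 1591195_x_at with SD was 95.4 ± 108 in the Dobermans, 37.7 ± 20.4 in the Boxers (n = 4), 452.8 ± 66.4 in the paced mongrels and 53.7 ± 11.3 in the controls (n = 3 in each of the others). The array median was also higher in the paced mongrels (207.2 to 219) than in the controls (142.3 to 145.8) and Boxers (131.9 to 145.4), and its part was not tested.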
